A study of Mus musculus with 8 samples.

Results

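Fatty acid oxidation and ketogenesis genes are described here in whole livers of NASH diet–fed mice with and without FoxO1 in myeloid cells. The group holds 38 genes, chosen by symbol for their roles in mitochondrial and peroxisomal β-oxidation, the carnitine shuttle and ketone body metabolism, or as fasting targets of the nuclear receptor PPARα. All 38 were found among the 46517 genes of the table, and all 38 passed the filter on low counts, as did 13278 genes in all. The rule goes by symbol and uses no measured value, although the members were chosen with earlier results of these data known.

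Livers came from 4 male MøFoxO1-KO mice (replicates 26 to 29) and 4 male WT littermates (replicates 22 to 25). Both groups were C57BL/6 mice homozygous for the loxP-flanked FoxO1 allele. MøFoxO1-KO mice also carried Lyz2-Cre, in which the promoter of the myeloid gene lysozyme 2 drives Cre recombinase, so the deletion is not limited to macrophages of the liver. All mice started the NASH diet at 6 weeks of age, ate it for 25 weeks and were fasted for 16 hours before they were killed at 31 weeks of age. Polyadenylated RNA of a piece of liver was sequenced, and total counts lay between 15253218 and 18025481 per mouse. Foxo1 itself did not pass the test in whole liver, with normalized counts of 404 ± 73.9 in WT mice and 359 ± 73.4 in MøFoxO1-KO mice (SD, n = 4 each, log2 fold change -0.17, edgeR adjusted P = 0.686), so whole liver does not check the genotype. Of the hepatocyte markers, 7 of 8 had a higher level and 1 a lower level in MøFoxO1-KO livers, and their summed share of the counts was 72770 to 89600 CPM (counts scaled to a common total) in WT mice and 75960 to 100700 in MøFoxO1-KO mice. Of 9 macrophage markers, 6 were higher and 3 lower, and their sum was 167 to 349 CPM in WT mice and 184 to 746 in MøFoxO1-KO mice. This sum hides opposite shifts, from a log2 fold change of -4.13 (Gpnmb) to 5.18 (Marco). Endothelial (5 of 5) and T or B cell markers (5 of 5) were higher and cholangiocyte markers lower (4 of 4). Stellate cell or myofibroblast markers split 3 to 3. None of the markers in these 4 sets passed the adjusted P in edgeR, whereas 1 hepatocyte and 1 macrophage marker did. Of 4 exocrine pancreas or gut markers only Cela1 was tested. It was higher (log2 fold change 1.40, edgeR unadjusted P = 0.000522) and did not pass the adjusted P. The part of these shifts in the values of the fatty acid genes was not tested. In whole tissue, fewer cells of a type and less RNA per cell cannot be told apart.

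β-oxidation removes acetyl-CoA units from activated fatty acids. Mitochondria take up long chains as carnitine esters and oxidize them, whereas peroxisomes shorten very long and branched chains. In the fasted liver, PPARα paired with RXR switches on many of these genes, and the acetyl-CoA feeds ketone bodies that other organs burn. PPARα with RXR is known to bind a direct repeat of the letters AGGTCA with 1 base between the repeats, called DR1.

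DR1 matches close to the start sites were looked for because fasting PPARα targets make up much of the group. Of the 38 members, 33 had a promoter sequence in RefSeq (GRCm38.p6, 250 bases before to 50 after the start site). AGGTCANAGGTCA, searched on both strands with up to 2 mismatches, was found in 6 of the 33 (18.18%), against 4.1% of 19214 genes of the table with a promoter sequence. No member held an exact match. A single repeat, AGGTCA, which is part of the longer motif, was found in 8 of the 33 (24.24%) and in 16.91% of the 19214. The matches of Acox2 and Slc25a20 lay downstream of the start site. The other 4 are given here in the direction of the gene, with the match in capitals, since they are the only matches upstream of a member's start.
Fabp1 (chr6:71199797-71199839, plus strand): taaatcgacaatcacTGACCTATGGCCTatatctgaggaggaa
Echs1 (chr7:140116477-140116519, minus strand): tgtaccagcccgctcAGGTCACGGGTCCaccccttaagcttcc
Etfa (chr9:55512293-55512335, minus strand): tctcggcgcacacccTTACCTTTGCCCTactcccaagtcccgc
Acot4 (chr12:84038351-84038378, plus strand): ctcagccccgaagcaTGACCTTTGGCCG
The match in Fabp1 had 1 mismatch and began 67 bases before the RefSeq start site. The others had 2 mismatches and began 83 bases (Echs1), 77 bases (Etfa) and 13 bases (Acot4) before it. These letters are a description of the windows, and nothing on binding was measured.

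In edgeR no member of the group passed the adjusted P, whereas DESeq2 called 3. By the quasi-likelihood test of edgeR, with P values adjusted over all genes, 0 of 38 passed an adjusted P of 0.05 together with an absolute log2 fold change over 1.5, limits which 0.188% of all tested genes passed. None of the 38 passed the adjusted P alone, which 0.294% of all genes did, and the lowest adjusted P of a member was 0.12 for Etfb. limma-voom called 0 of the 38, and DESeq2 called 3 of the 38 at an adjusted P under 0.05, namely Etfb, Acot2 and Pdk4, against 4.02% of the genes it tested. At an unadjusted P under 0.05 in edgeR, 4 members were higher, where 8.65% of all genes were, and 6 were lower, where 8.06% of all genes were. All mice of one group lay above all mice of the other in 4 members higher in MøFoxO1-KO livers, against 5.00% of all genes, and in 3 members that were lower, against 4.71% of all genes. Without MøFoxO1-KO 27, WT 23 or MøFoxO1-KO 29 in the fit, 4, 5 and 5 members were under an unadjusted P of 0.05 in place of 10, and without WT 22 it was 6. The share of all genes in those fits is not given here, so whether this drop is particular to the members cannot be told. The members without overlap were 7 higher and 5 lower without MøFoxO1-KO 26, and the lower ones were 6 without MøFoxO1-KO 28 and 5 without WT 25, against a percentage of all genes that also grows when a mouse is left out (8.36% higher and 8.30% lower without MøFoxO1-KO 26).

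The log2 fold changes of the 38 members ran from -1.28 (Pdk4) to 0.77 (Etfb). Of these, 13 lay above 0 and 25 below, with a median of -0.09, against -0.01 for all tested genes. The 95% interval lay inside ±1 log2 unit for 31 of 38 members (81.58%), against 71.03% of all genes. It lay inside ±0.5 for 18 of 38 (47.37%), against 27.19% of all genes. The median SE was 0.15 for members and 0.20 for all genes, so these shares also depend on narrower intervals. One WT mouse weighed on the median log2 fold change of the members. WT 23 was the highest of the 8 mice in 18 of 38 members (47.37%), against 27.16% of all genes. It was the lowest in 5 of 38 members (13.16%), against 25.49% of all genes, so over all genes it stood out in both directions. Without WT 23, the median of the members was -0.0013.

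**Figure D1:**
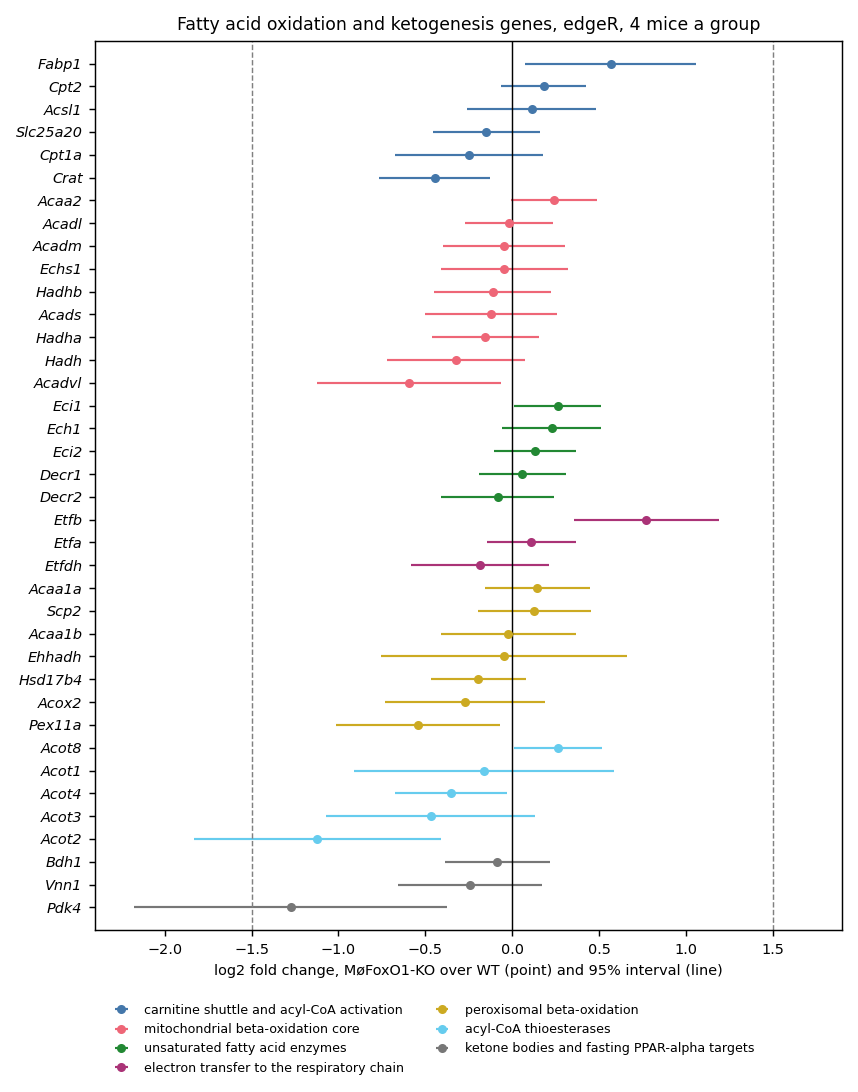
Log2 fold change of each of the 38 members, MøFoxO1-KO over WT (point), with its 95% interval from edgeR (line), 4 mice a group, ordered and coloured by role. Dashed lines mark the fold change limit of 1.5, and only Acot2 and Pdk4 have a point beyond 1 log2 unit.

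These directions are relative to the TMM normalization, which centres the bulk of genes. On the per-length scale of TPM (a share of all transcripts), the genes with the largest gain in MøFoxO1-KO livers were Gm23935, with a length of 57 bases and 42710 TPM in WT against 70090 in MøFoxO1-KO mice, and Mup3, with 7900 against 17230. Scaled by total count alone, the median of all genes was -0.17 and the split of members 7 higher to 31 lower. Scaled by the per-length total, as TPM is, the median of all genes was -0.32 and the split 2 to 36. There 3 members passed the adjusted P, as did 609 of all 13278 genes, against 39 genes under TMM. Relative to the median gene, 13 members were above and 25 below under TMM, RLE, upper-quartile, total-count and per-length scaling alike. These scalings shift all genes by nearly the same amount, so this count could hardly change and is no check of the directions. TPM is therefore used below only to rank genes by their mean over the 8 mice, and groups are compared by TMM-normalized counts.

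By length, the members spanned a 1345-fold range. Fabp1, a fatty acid carrier of the liver cytosol, was highest at 13570 ± 3012 TPM (SD, n = 8). The peroxisomal thiolase Acaa1b followed at 3590 ± 785 TPM, then Scp2, which carries the thiolase for branched chains, at 2535 ± 330 TPM, and the mitochondrial thiolase Acaa2 at 1527 ± 93.1 TPM. Pdk4, a kinase that shuts off pyruvate dehydrogenase, was lowest at 10.1 ± 7.17 TPM. In all, 27 of 38 members had a mean over 100 TPM. Raw counts ranged from 88 to 88713 per mouse, and 9 members differed over 2-fold between the highest and lowest mouse.

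**Figure D2:**
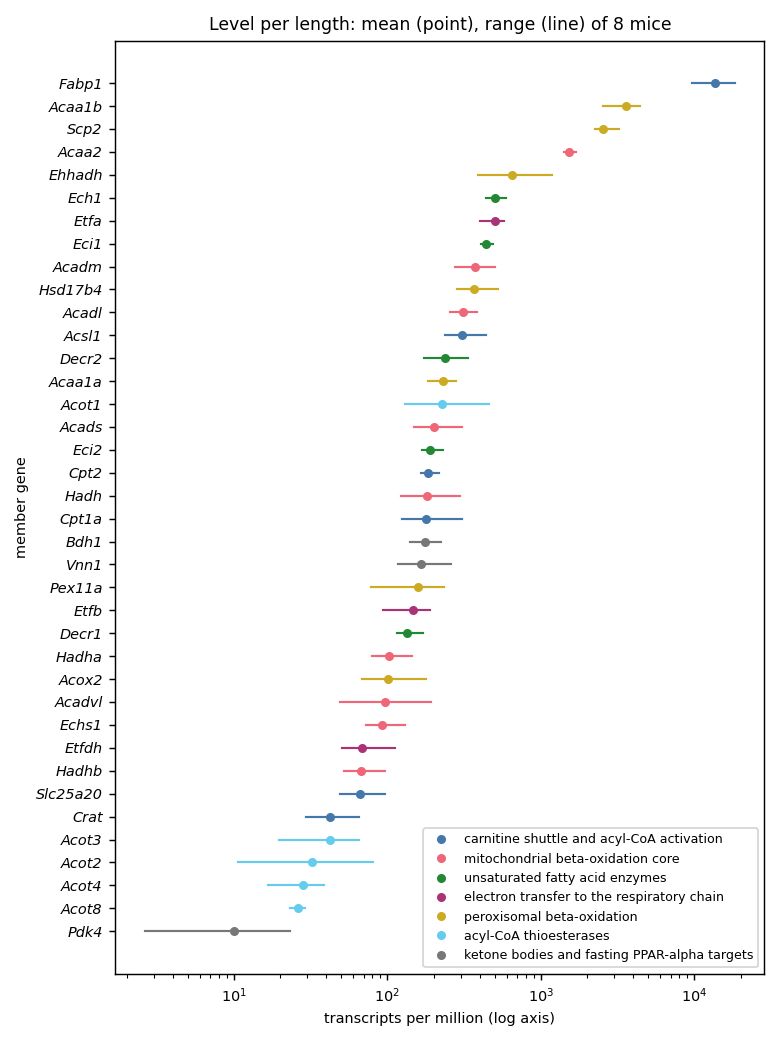
Mean level of each member over all 8 mice in TPM (point, log axis) with the range from the lowest to the highest mouse (line). Fabp1 lies at 13570 and Pdk4 at 10.1, and 27 members lie above 100.

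In the carnitine shuttle and acyl-CoA activation, 3 of 6 members were higher and 3 lower, and of those higher Cpt2 and Acsl1 turned below 0 under per-length scaling. Fabp1 (chr6:71199827-71205023, GRCm38) had normalized counts of 60674, 40558, 64367 and 47415 in WT 22 to 25 and of 56514, 105503, 74660 and 78871 in MøFoxO1-KO 26 to 29. One MøFoxO1-KO mouse lay inside the WT range and the other 3 above it. The log2 fold change was 0.57 ± 0.22 (SE, edgeR adjusted P = 0.245), and it was 0.22 with an offset for GC content and length. Crat, which moves acetyl groups onto carnitine, had 1934, 2562, 2553 and 1830 in WT mice and 1463, 1700, 1750 and 1603 in MøFoxO1-KO mice. Every MøFoxO1-KO value was below every WT value, at a log2 fold change of -0.45 ± 0.14 (edgeR adjusted P = 0.187).

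Cpt1a, the gate of mitochondrial entry that loads long chains onto carnitine, had 5885, 9984, 6861 and 5507 in WT mice and 6899, 5587, 5741 and 5530 in MøFoxO1-KO mice. WT 23 stood above all others and the groups overlapped. The log2 fold change of Cpt1a was -0.25 ± 0.19 (edgeR adjusted P = 0.557), and -0.03 without WT 23. Cpt2, which releases the chain inside the mitochondrion, had 3166, 3737, 3731 and 3600 in WT mice and 3899, 4263, 3828 and 4152 in MøFoxO1-KO mice. Groups did not overlap for Cpt2, although the log2 fold change was 0.18 ± 0.11 (edgeR adjusted P = 0.443). With the GC and length offset it was 0.12 and the groups overlapped. The acyl-CoA synthetase Acsl1 and the carnitine carrier Slc25a20 had log2 fold changes of 0.11 and -0.15, with overlapping groups, and of 0.27 and -0.04 without WT 23.

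Among the 9 enzymes of the mitochondrial core, 1 was higher and 8 were lower (median of their log2 fold changes -0.11), and the one that was higher, Acaa2, turned below 0 under per-length scaling. Acaa2 (chr18:74779197-74806207), the thiolase of the last step, had 17706, 19347, 17711 and 18808 in WT mice and 21220, 22242, 21097 and 22319 in MøFoxO1-KO mice. Every MøFoxO1-KO mouse was above every WT mouse, by a log2 fold change of 0.24 ± 0.11 (edgeR adjusted P = 0.323). With the GC and length offset it was 0.07 and the groups overlapped. Acadvl, the dehydrogenase for very long chains, had 2333, 3920, 2197 and 1895 in WT mice and 2245, 1377, 1651 and 1575 in MøFoxO1-KO mice. MøFoxO1-KO 26 lay inside the WT range, and the log2 fold change was -0.59 ± 0.24 (edgeR adjusted P = 0.252), or -0.32 without WT 23. Dvl2 overlaps Acadvl on the opposite strand and shared 26.93% of its 50-base stretches, and the strand setting of the counting is not given in the sources used here.

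The other 7 core genes are the dehydrogenases Acadl, Acadm and Acads, the trifunctional protein subunits Hadha and Hadhb, the short-chain hydroxyacyl dehydrogenase Hadh and the hydratase Echs1. Their log2 fold changes lay between -0.32 (Hadh) and -0.02 (Acadl), with overlapping groups in each. WT 23 was the highest of the 8 mice in 7 of the 9 core genes. Without it, Hadh, Hadha and Hadhb had log2 fold changes of -0.17, -0.07 and -0.0060 in place of -0.32, -0.16 and -0.11. Also without it, Acadl, Acadm, Acads and Echs1 had log2 fold changes of 0.01, 0.04, 0.03 and 0.07, on the other side of 0.

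**Figure D3:**
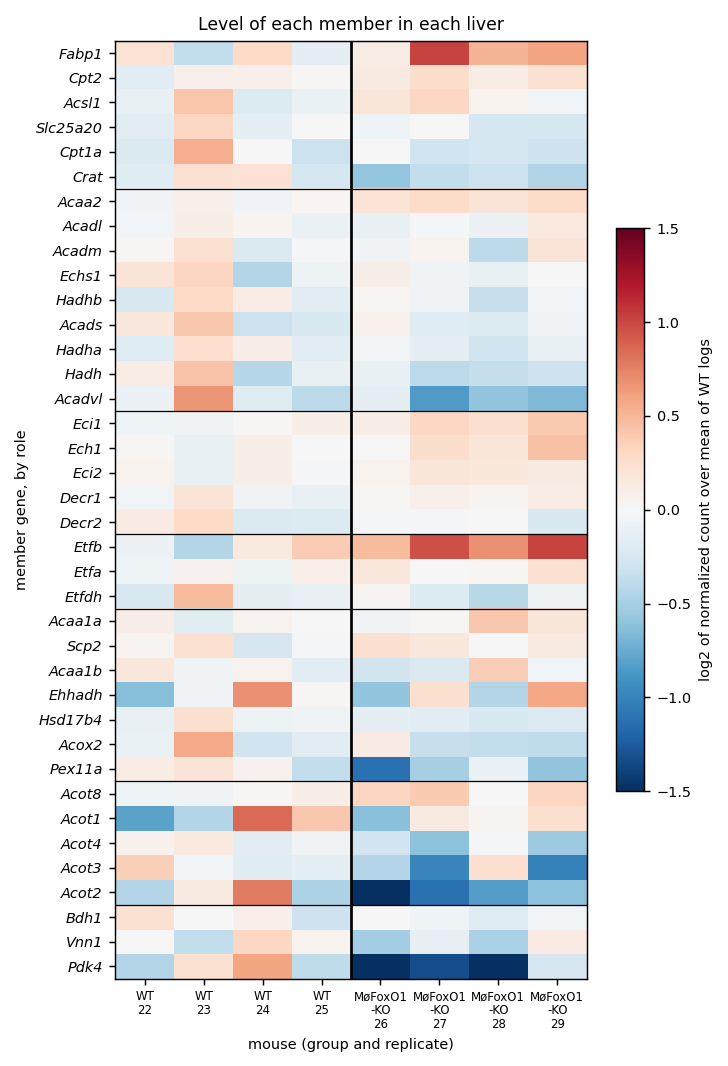
Each row is a member and each column a mouse, and colour gives the log2 of the normalized count over the mean of the WT logs, with colours saturated beyond ±1.5. WT 23 is the darkest red WT column for the mitochondrial core, and Pdk4 and Acot2 are the darkest blue in MøFoxO1-KO mice.

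Enzymes for unsaturated fatty acids were higher in 4 of 5 members, all 4 of which turned below 0 under per-length scaling. Eci1, an isomerase that shifts double bonds, had 3616, 3647, 3827 and 4003 in WT mice and 4034, 4670, 4460 and 4938 in MøFoxO1-KO mice. The groups did not overlap, with MøFoxO1-KO 26 just above WT 25. The log2 fold change of Eci1 was 0.26 ± 0.11 (edgeR adjusted P = 0.278), and -0.02 with the GC and length offset. Ech1, Eci2 and Decr1 had log2 fold changes of 0.23, 0.13 and 0.06, and Decr2 had -0.08, with overlapping groups in all 4.

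Electron transfer flavoprotein passes electrons from the acyl-CoA dehydrogenases to the respiratory chain. Etfb (chr7:43444108-43457800), its β subunit, had 1024, 803, 1196 and 1408 in WT mice and 1511, 2124, 1742 and 2182 in MøFoxO1-KO mice. All MøFoxO1-KO values were above all WT values. The log2 fold change was 0.77 ± 0.19 (95% interval 0.35 to 1.19, edgeR unadjusted P = 0.00208, adjusted P = 0.12). DESeq2 gave an adjusted P of 0.00681, and over all alternatives it ranged from there to 0.336. With the GC and length offset, the groups did not overlap, at a log2 fold change of 0.51. They overlapped when scaled by total count (0.60) or by the per-length total (0.46). Of its 50-base stretches, 43.81% also occur in Gm45233, which overlaps it on the same strand and had 0 counts. How reads in the shared part were counted is not given, so whether the count of Etfb covers its whole transcript is uncertain. The partner Etfa had a log2 fold change of 0.11 ± 0.11, and Etfdh, the oxidoreductase that takes the electrons on, had -0.18 ± 0.18 (0.0034 without WT 23), both with overlapping groups.

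Of the 7 peroxisomal members, 2 were higher (Scp2 and Acaa1a, both below 0 under total-count or per-length scaling) and 5 lower. Pex11a, which helps peroxisomes divide, had 3985, 4207, 3864 and 2844 in WT mice and 1690, 2616, 3480 and 2451 in MøFoxO1-KO mice. Only MøFoxO1-KO 28 lay inside the WT range, and the log2 fold change was -0.54 ± 0.21 (edgeR adjusted P = 0.247). Hsd17b4, the multifunctional enzyme for branched chains, had 10503, 13440, 10726 and 10909 in WT mice and 10216, 10131, 9638 and 9828 in MøFoxO1-KO mice. Its groups did not overlap, at a log2 fold change of -0.20 ± 0.12 (edgeR adjusted P = 0.462), which was -0.11 without WT 23. With the GC and length offset the groups overlapped, at -0.14.

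Ehhadh, the multifunctional enzyme for straight chains, had 10321, 15501, 25947 and 16296 in WT mice and 10729, 19008, 11905 and 24158 in MøFoxO1-KO mice. Both groups spread over more than a 2-fold range, and the log2 fold change was -0.05 ± 0.32. Acaa1b had 68051, 58409, 62461 and 53706 in WT mice and 49931, 52102, 78187 and 58784 in MøFoxO1-KO mice, and its near copy Acaa1a had 8923, 7454, 8608 and 8338 against 8000, 8440, 10981 and 9430. The transcripts of this pair were 91.03% identical, so how reads were split between them is uncertain. Their log2 fold changes were -0.02 ± 0.17 and 0.15 ± 0.14, with overlapping groups. Scp2 had 74487, 84852, 60810 and 70967 in WT mice and 85036, 80985, 72519 and 79371 in MøFoxO1-KO mice, and the groups overlapped (log2 fold change 0.13 ± 0.15). Of the 50-base stretches of Scp2, 29.7% also occur in Scp2-ps2, and how such reads were counted is not given. Acox2, the oxidase for branched chains and bile acid precursors, had a log2 fold change of -0.27 ± 0.21, which was -0.04 without WT 23 and -0.41 without MøFoxO1-KO 26.

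Acyl-CoA thioesterases release free fatty acids from CoA, and 4 of the 5 were lower. Acot2 (chr12:83987861-83993873), the mitochondrial form, had 547, 820, 1281 and 534 in WT mice and 214, 343, 420 and 487 in MøFoxO1-KO mice. Its groups did not overlap. The log2 fold change was -1.12 ± 0.32 (95% interval -1.83 to -0.41, edgeR unadjusted P = 0.0055, adjusted P = 0.149), DESeq2 gave an adjusted P of 0.0186, and the range over all alternatives was 0.0186 to 0.38. Acot1, the cytosolic form and 79.91% identical in its transcript to Acot2, had 1640, 2112, 5147 and 3776 in WT mice and 1862, 3139, 2948 and 3389 in MøFoxO1-KO mice. All MøFoxO1-KO values of Acot1 lay inside the wide WT range (log2 fold change -0.16 ± 0.34). Of the 50-base stretches of Acot2, 24.55% also occur in Acot1, so the split of reads between them is uncertain.

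Acot4, a peroxisomal form, had 695, 736, 593 and 639 in WT mice and 542, 434, 655 and 455 in MøFoxO1-KO mice, with 1 MøFoxO1-KO mouse inside the WT range (log2 fold change -0.35 ± 0.15, edgeR adjusted P = 0.264). Acot3, also peroxisomal, had 1367, 1033, 938 and 969 in WT mice and 782, 534, 1263 and 527 in MøFoxO1-KO mice. MøFoxO1-KO 28 stood apart from the other 3, and the log2 fold change of -0.47 ± 0.27 was -0.80 without it (edgeR adjusted P = 0.414 with it and 0.0973 without). Acot8 was the member of this class that was higher (below 0 under per-length scaling), with 394, 399, 418 and 440 in WT mice and 515, 543, 414 and 514 in MøFoxO1-KO mice. Again MøFoxO1-KO 28 alone lay inside the WT range (log2 fold change 0.27 ± 0.11, edgeR adjusted P = 0.28).

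Bdh1, Pdk4 and Vnn1 were all lower. Pdk4 (chr6:5483351-5496309) had 288, 459, 591 and 301 in WT mice and 84.4, 156, 109 and 329 in MøFoxO1-KO mice. The first 3 MøFoxO1-KO mice were below all WT mice and MøFoxO1-KO 29 was inside the WT range. This was the lowest log2 fold change of the group, at -1.28 ± 0.40 (95% interval -2.18 to -0.38, edgeR unadjusted P = 0.0102, adjusted P = 0.183), and it was -1.82 without MøFoxO1-KO 29 (adjusted P = 0.0788). DESeq2 gave an adjusted P of 0.0367, and over all alternatives it ranged from there to 0.428. Bdh1, which makes and uses β-hydroxybutyrate, had 6834, 5829, 6109 and 4699 in WT mice and 5810, 5582, 5093 and 5630 in MøFoxO1-KO mice, all inside the WT range (log2 fold change -0.09 ± 0.14). Vnn1, a pantetheinase and PPARα target, had 3674, 2839, 4546 and 3818 in WT mice and 2575, 3376, 2621 and 4002 in MøFoxO1-KO mice, which overlapped (log2 fold change -0.24 ± 0.19).

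**Figure D4:**
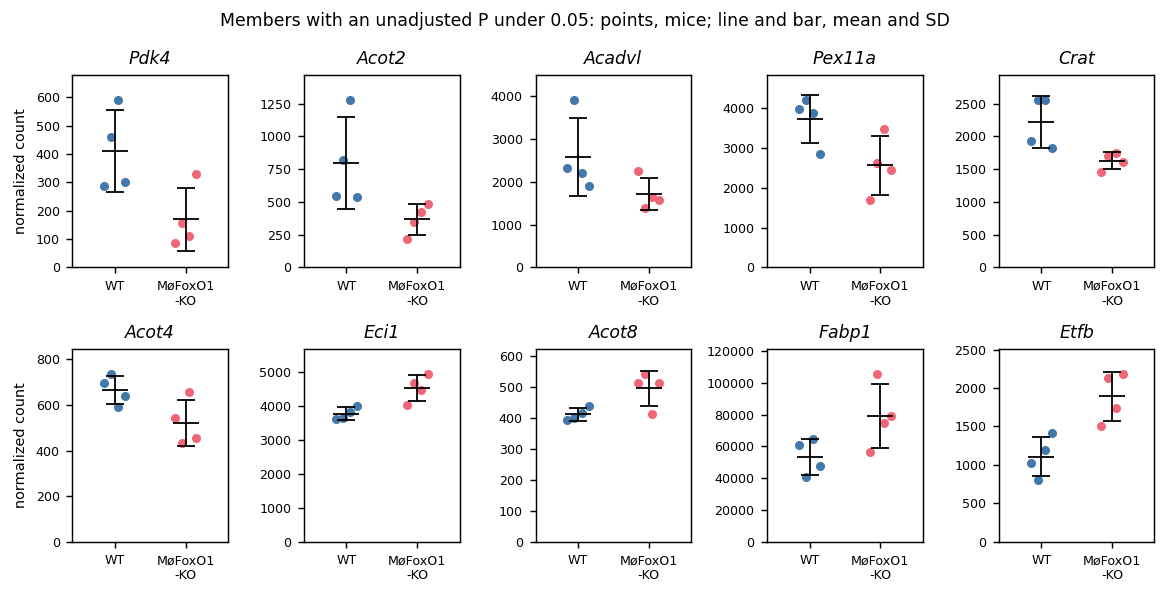
Normalized counts of the 10 members with an unadjusted P under 0.05, per mouse (points), with the mean and SD of each group of 4 (line and bar), on axes that start at 0. In Acot2, Crat, Eci1 and Etfb the groups do not overlap, and in the other 6 at least 1 MøFoxO1-KO mouse lies inside the WT range.

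Exact two-sided permutation tests over the 8 mice gave their smallest possible P, 0.0286, for the 7 members whose groups did not overlap (Etfb, Eci1, Cpt2, Acaa2, Acot2, Crat and Hsd17b4). This P follows from the lack of overlap itself, which 9.71% of all tested genes showed, and adds no further support. Pdk4, Fabp1, Acadvl, Acot4 and Acot8 had an exact P of 0.0857, and Pex11a 0.0571.

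Other genes of the pathway were counted by the same test. Of 53 other β-oxidation and ketone enzymes tested, 20 were higher and 33 lower (median log2 fold change -0.08). In edgeR 1 passed the adjusted P, which 0.294% of all tested genes did. DESeq2 called 2, against 4.02% of the genes it tested. At an unadjusted P under 0.05 there were 7 (13.21%), against 16.71% of all tested genes. The gene called by edgeR was Nudt7, a peroxisomal hydrolase of CoA, with 2283 ± 323 in WT mice and 4793 ± 531 in MøFoxO1-KO mice (SD, n = 4 each, log2 fold change 1.07, edgeR adjusted P = 0.0171). Of 26 other PPARα target genes, 7 were higher and 19 lower (median -0.32), and 11 had an unadjusted P under 0.05 (42.31%, against 16.71%). In edgeR 2 passed both limits, which 0.188% of all tested genes did. DESeq2 called 6 of the 26 at the adjusted P, against 4.02% of the genes it tested. The list was chosen with earlier results of these data known, so these shares are no independent support. The 2 called by edgeR, Cd36 and Cidec, are also named by the paper as downregulated in these livers. Cd36, a fatty acid uptake receptor, fell from 5267 ± 702 to 1755 ± 240 (log2 fold change -1.59, edgeR adjusted P = 0.00935). Cidec, a lipid droplet protein, fell from 1271 ± 419 to 152 ± 112 (log2 fold change -3.06, edgeR adjusted P = 0.0338). None of 18 genes for PPARα and partner regulators (8 higher, 10 lower) passed the adjusted P in edgeR. Nor did any of 15 peroxin genes (4 and 11) or 10 genes of the pyruvate dehydrogenase complex and its regulators (2 and 8). In this order, 6 (33.33%), 2 (13.33%) and 2 (20%) of them had an unadjusted P under 0.05, against the same 16.71% of all genes. DESeq2 called 0, 0 and 1 of these, and limma-voom none. The log2 fold changes of the 18 regulators ran from -2.14 (Pparg) to 0.31 (Nr1h3). Pparg had 442 ± 106 in WT mice and 99.6 ± 109 in MøFoxO1-KO mice (SD, n = 4 each, edgeR adjusted P = 0.181), and its groups did not overlap.

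The respiratory chain receives the electrons of β-oxidation. The 92 nuclear genes counted for its complexes were taken by name and include ATP synthase and assembly factors such as Ndufaf3. Of these 92, 85 had a log2 fold change above 0 and 7 below it (median 0.37). An unadjusted P under 0.05 was found for 55 (59.78%, against 16.71% of all genes). None passed the adjusted P in edgeR or limma-voom, and 18 did in DESeq2, which called 4.02% of all genes it tested. This list was also chosen with earlier results of these data known, so these shares are no independent support. With the GC and length offset, the median was 0.17, with 75 of 92 higher. Scaled by total count, 71 were above 0 (median 0.21), and scaled by the per-length total 54 were (median 0.06). Under each of the 5 scalings, 86 or 87 lay above the median gene. That count could hardly change, because these scalings shift all genes by nearly the same amount. Ndufb2, a subunit of complex I, had the smallest unadjusted P among them, with 265 in WT mice and 484 in MøFoxO1-KO mice on average (log2 fold change 0.87, edgeR adjusted P = 0.0738).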

How the data were processed

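Livers of 8 mice (4 MøFoxO1-KO, 4 WT) were profiled by RNA-Seq. Read counts were deposited by the authors as 1 unnormalized table of genes, in the layout of featureCounts, with exon positions on mm10 (GRCm38). STAR and featureCounts are named in the submitters' processing notes, without versions. Whether strand was used, and how multiply mapped reads were counted, is not given in the sources used here. This also bears on Hadhb and Acot3, with 19.74% and 21.25% of their 50-base stretches shared with other genes. Groups were taken from the sample titles. Symbols came from GENCODE M21.

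Genes were filtered with filterByExpr (minimum count 10, minimum total 15), scaled by TMM and tested for genotype with the quasi-likelihood test of edgeR 4.0.16 in R 4.3.3, with Benjamini-Hochberg adjustment over 13278 genes. The SE is the absolute log2 fold change over the root of F. A normalized count is the count over the effective library size, times its mean. TPM was computed from the counts and the exon lengths, and was used only to rank genes. Exact permutation tests used scipy 1.17.1. The code was tested on simulated data.

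Members and lists were chosen with earlier results of these data known. All members may be named. Values per mouse are given for members with an unadjusted P under 0.05 or groups that do not overlap, for the 5 highest by TPM and for Cpt1a, Cpt2, Ehhadh, Acaa1a, Acaa1b, Bdh1, Pdk4, Vnn1 and Acot1 to Acot4. Genes of the pathway lists were named by their adjusted or smallest unadjusted P. Pseudogenes and 1 kind of name ending in rt were left out of the respiratory genes. The protein comparison planned for near copies was replaced by one of transcripts. Alternatives were DESeq2 1.42.0, limma-voom (limma 3.58.1), a robust fit, other scalings and filters, an offset for GC content and length (lowess), and leaving out each mouse. P values and intervals cover the spread between mice.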

Additional observations from a re-analysis of the deposited data

Results flagged for a closer look

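In 6 of 76 groups of 4 mice (38 members in 2 genotypes), 1 mouse stood apart from the other 3 by Dixon's ratio at the 95% level, where chance gives about 1 in 20. WT 23 was the high mouse in 3 of them. Its normalized count was 6361 for Etfdh, where the other WT mice had 3859 to 4238, 31346 for Acsl1 against 20444 to 21955, and 13440 for Hsd17b4 against 10503 to 10909. MøFoxO1-KO 26 was high for Acox2 (3638 against 2565 to 2635) and Cpt1a (6899 against 5530 to 5741). MøFoxO1-KO 29 was low for Decr2 (4033 against 4636 to 4703).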

How the results depend on the processing

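No paired analysis was possible because the replicate numbers of the 2 groups are not shared. No member passed both limits or the adjusted P in any fit that left out 1 mouse. In those fits, the members with an unadjusted P under 0.05 numbered 4 to 9 (1 to 3 higher and 3 to 6 lower). Members higher without overlap numbered 4 to 7, against 5.96% to 8.52% of all genes. Members lower without overlap numbered 3 to 6, against 5.34% to 8.30% of all genes. The median of members was -0.12 to -0.0013. DESeq2 called 3 members at the adjusted P (Etfb 0.78, Acot2 -1.11 and Pdk4 -1.26 on the log2 scale), and the cause of the difference from edgeR was not tested. Members higher at an unadjusted P numbered 2 without a filter and 1 with the GC and length offset, where 1 was higher without overlap. The 2 scalings without TMM were chosen after seeing the data and shift all genes. Scaling by total count gave 1 member higher and 10 lower at an unadjusted P, where 3.34% and 18.66% of all genes were. It gave 0 higher without overlap, against 1.77% of all genes, and a median of -0.24, against -0.17. Per-length scaling gave 1 past both limits, 3 past the adjusted P (Acot2 -1.46, Crat -0.77, Pdk4 -1.64), 22 past the unadjusted P (1 higher, 21 lower), 0 higher and 10 lower without overlap and a median of -0.40.

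Directions turned as follows, in log2 fold change. Per-length scaling gave Acot8 -0.048, Acsl1 -0.20, Cpt2 -0.13, Etfa -0.20, Acaa2 -0.071, Acaa1a -0.16, Scp2 -0.18, Decr1 -0.26, Ech1 -0.09, Eci1 -0.050 and Eci2 -0.18. Total-count scaling gave Acsl1 -0.037, Etfa -0.042, Acaa1a -0.0079, Scp2 -0.022, Decr1 -0.10 and Eci2 -0.028. Upper-quartile factors gave Acadl 0.0086 and Acaa1b 0.0005. The GC and length offset gave Acadm 0.027, Echs1 0.061, Hadhb 0.015 and Eci1 -0.022. Leaving out 1 mouse turned 9 members, with ranges of -0.38 to 0.17 (Acot1), -0.27 to 0.0034 (Etfdh), -0.073 to 0.020 (Acadl), -0.13 to 0.070 (Acadm), -0.22 to 0.026 (Acads), -0.17 to 0.065 (Echs1), -0.17 to 0.054 (Acaa1b), -0.29 to 0.23 (Ehhadh) and -0.16 to 0.023 (Decr2). In all, 17 members kept their direction in every fit. Counting error was not compared with the spread between mice.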
